A study of Mus musculus with 11 samples.

Results

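The immediate early AP-1 and Egr genes were examined in HT22 cells: the Fos family genes Fos, Fosb, Fosl1 and Fosl2, the Jun family genes Jun, Junb and Jund, and Egr1, Atf3 and Ier2. They were taken by gene symbol from a table of read counts per RefSeq transcript, with the row of highest mean kept for each gene. All 10 were among the 24080 genes so obtained, and 9 of the 10 were among the 13498 genes with enough counts to be tested. HT22 is an SV40-immortalized mouse hippocampal line. The derivative HT22[TR/TO-Klf9] was stably transfected with pCDNA6:TR, which supplies a tetracycline repressor, and with pCDNA4:TO-Klf9, a Klf9 cassette that doxycycline releases. The 4 groups were TR/TO-Klf9 cells given doxycycline, TR/TO-Klf9 cells given vehicle, parent HT22 cells given doxycycline, and parent HT22 cells given vehicle. Doxycycline was used at 0.5 µg/ml in medium with 10% serum, the vehicle was DMSO, and exposure began 24 hours after plating and lasted 8 hours. The TR/TO-Klf9 line was kept in zeocin and blasticidin, which the parent line was not stated to receive, and the labels do not say whether it is 1 clone. The design asks which genes respond when Klf9, a zinc finger repressor or activator of the KLF family that binds GC-rich DNA, is switched on.

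AP-1 is a dimer of leucine zipper proteins: a Jun protein pairs with a Fos protein, with another Jun protein, or with a relative such as Atf3. Serum, growth factors and neuronal activity switch these genes on within minutes, through ERK signalling to serum response factor and its ternary complex partners, and through CREB. Most of the messages, Fos and Egr1 above all, then fall away quickly, whereas Jund, Fosl1 and Fosl2 can be held at a steady level in growing cells. Egr1 is a zinc finger factor induced by the same signals. In hippocampal neurons, Fos and Egr1 are widely used as marks of recent activity.

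Promoter sequence from RefSeq (GRCm38.p6) was at hand for 7 of the 10 genes, as windows of 250 bases before and 50 after the annotated start. KLF and SP proteins bind GC boxes, so GGGCGG was searched on both strands. At least 1 copy lay in 5 of the 7 windows, those of Fos, Fosb, Fosl2, Jun and Atf3, and none in those of Junb and Jund. The same motif was in 35.7% of all 32851 RefSeq promoter windows of that length. The 250 upstream bases of Fosl2 and Jun are shown because both genes had lower counts in the TR/TO-Klf9 line while only Fosl2 was called lower after doxycycline. Each holds 1 GC box, whose first base is at -75 in Fosl2 and at -89 in Jun. Junb, whose window has no GC box, also had lower counts in the TR/TO-Klf9 line. Capitals mark the GC boxes and, in Jun, TGACATCA, the AP-1 variant through which Jun is known to act on its own promoter, with its first base at -45. That variant was in 1 of the 7 windows and in 3.62% of all promoters. The Fosl2 stretch is chr5:32136222-32136471 on the plus strand, and the Jun stretch is chr4:95052223-95052472 on the minus strand.
Fosl2: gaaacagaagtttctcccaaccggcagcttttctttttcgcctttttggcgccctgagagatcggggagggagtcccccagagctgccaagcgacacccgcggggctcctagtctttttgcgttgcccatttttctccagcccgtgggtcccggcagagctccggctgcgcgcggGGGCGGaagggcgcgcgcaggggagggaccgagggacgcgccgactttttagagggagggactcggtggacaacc
Jun: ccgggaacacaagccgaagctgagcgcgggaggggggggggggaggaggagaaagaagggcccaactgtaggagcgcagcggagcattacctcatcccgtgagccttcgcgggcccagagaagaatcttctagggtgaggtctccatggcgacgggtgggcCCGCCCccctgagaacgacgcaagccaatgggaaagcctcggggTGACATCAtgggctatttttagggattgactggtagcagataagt
Other motifs were searched on both strands. The letters TGACTCA (the TPA response element) were in 0 of the 7 windows and 5.2% of all promoters, TGACGTCA (the cAMP response element) in 0 and 1.79%, GCGTGGGCG (the EGR site) in 0 and 0.612%, and the CArG box in 0 and 1.63%. TATAAA was in 2, those of Fos and Junb, and in 13.6% of all promoters. None of these motifs overlaps a GC box in the stretches shown. A match describes letters in a window and is not a measured binding site. A missing match covers only the 300 bases and the patterns searched, so sites further out or with other letters would be missed. Fosl1, Egr1 and Ier2 had no window to search.

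Of the 11 deposited columns, the one labelled TR/TO-Klf9 vehicle 3 and the one labelled TR/TO-Klf9 doxycycline 1 were identical across all rows. This library stood under opposite labels, so it was left out of both groups and its values are given beside the results. The comparisons used 1 TR/TO-Klf9 doxycycline library, 2 TR/TO-Klf9 vehicle libraries, 3 parent doxycycline libraries and 3 parent vehicle libraries. Total counts ran from 10279060 to 18858944. The labels do not say whether libraries of a group came from separate cultures, so p-values measure the spread between these libraries, which may be technical. Klf9 itself, the check of the labels, was measured in CPM, counts scaled to library size. TR/TO-Klf9 doxycycline had 102 CPM of Klf9, against 46.2 ± 3.27 CPM in TR/TO-Klf9 vehicle (SD, n = 2). It stood at 38.8 ± 0.77 CPM in parent doxycycline and 38.7 ± 2.70 CPM in parent vehicle (SD, n = 3 each). The library with opposite labels had 46.0 CPM of Klf9. Neuron markers were sparse: 2 of 8 reached 1 CPM, and their summed level was 12.5 CPM in TR/TO-Klf9 doxycycline, 17.1 to 20.3 CPM in TR/TO-Klf9 vehicle, 32.1 to 37.9 CPM in parent doxycycline and 33.7 to 34.4 CPM in parent vehicle. Rbfox3 and Nefl were at 0 in every parent library. All 6 fibroblast and mesenchymal markers reached 1 CPM, with a sum of 3554 CPM in TR/TO-Klf9 doxycycline, 3432 to 3571 CPM in TR/TO-Klf9 vehicle, 3574 to 3703 CPM in parent doxycycline and 2830 to 3764 CPM in parent vehicle.

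Divided by transcript length, Fosl1 had the highest scaled count of the 10 messages, at a mean of 105 CPM per kilobase over the 9 libraries. These counts may include reads of Ccdc85b, a gene that overlaps Fosl1 on the opposite strand. The part of such reads was not tested, so the top rank of the Fosl1 message is not settled. Jun followed at 52.5 CPM per kilobase and Jund at 46.7, with overlapping ranges and Jun above Jund in 6 of 9 libraries. Fosl2 averaged 35.1, Junb 28.2 and Ier2 24.7 CPM per kilobase. Fosl2 was above Junb in 9 of 9 libraries and Junb above Ier2 in 8 of 9, although the ranges over all libraries overlapped. Egr1 was at 5.13, Fosb at 2.24 and Fos at 0.548 CPM per kilobase, each with a range apart from its neighbours in this order. The activity marks Fos and Egr1 were thus among the low members in these cells, which were kept in serum-containing medium. The order depends on the division by length. In CPM alone Fosl2 had the highest mean, 229.5, ahead of Fosl1 at 196, Jun at 167 and Jund at 78.0. For genes with several transcripts the length chosen matters as well. With its longest transcript Egr1 stood at 3.47, and with their shortest Fosb stood at 7.78 and Fosl1 at 550 CPM per kilobase.

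**Figure D1:**
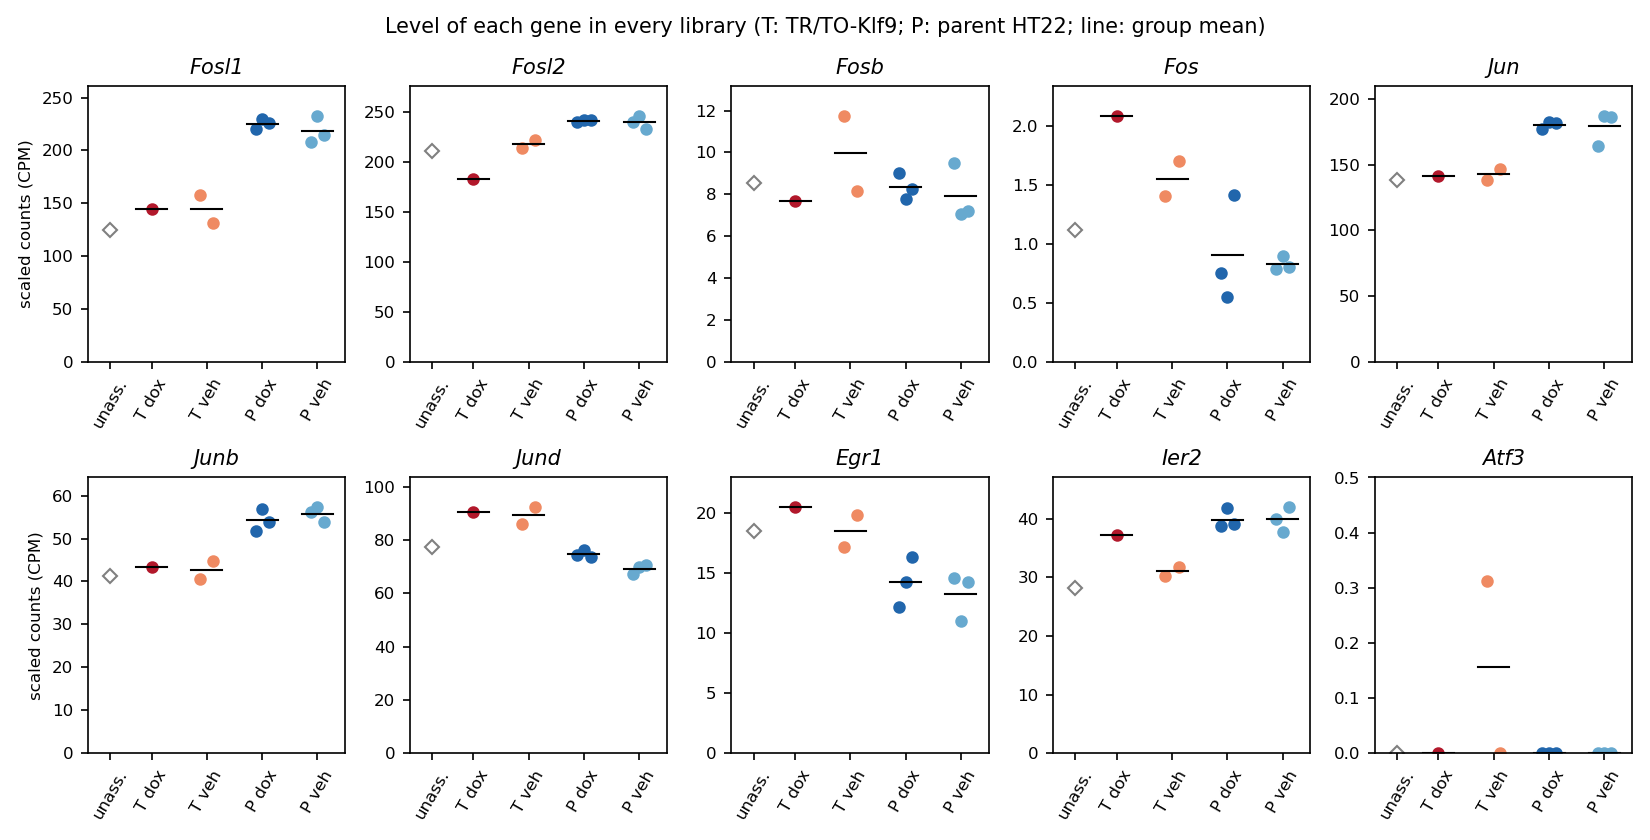
Scaled counts (CPM, vertical axis from 0) of the 10 genes in every library; points are libraries, lines are group means, T is TR/TO-Klf9, P is parent, and the open diamond is the library deposited under opposite labels. Fosl1, Jun, Junb, Fosl2 and Ier2 lie lower in all 3 TR/TO-Klf9 libraries than in all 6 parent libraries, Jund and Egr1 lie higher, and Atf3 has counts in 1 library.

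More of these genes were called between the lines than with doxycycline, where only 1 treated TR/TO-Klf9 library could be used. Under vehicle, 7 of the 9 tested genes differed between TR/TO-Klf9 and parent cells at an adjusted p under 0.05 (edgeR quasi-likelihood test, Benjamini-Hochberg over all genes): Jund and Egr1 were higher, and Fosl1, Fosl2, Jun, Junb and Ier2 were lower. Over all genes, 39% were called in this comparison, 17.9% higher and 21.1% lower. The median size of the log2 difference was 0.371 over the 9 genes and 0.186 over all genes tested. The lines were also compared under doxycycline, with libraries that the vehicle comparison does not use; this was chosen after the data were seen. There 3 genes were higher and 4 lower, against 42.9% of all genes called, 20.2% higher and 22.8% lower. Fosl1, Fosl2, Jun, Junb, Jund and Egr1, 6 of 9, were called the same way in both, as were 24.3% of all genes tested. Without regard to treatment, 2 genes were higher and 5 lower in all 3 TR/TO-Klf9 libraries than in all 6 parent libraries, and 38.2% of all genes separated in this way, 18.2% higher and 20% lower. In whole-culture RNA, fewer cells with a message and less of it per cell cannot be told apart.

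In doxycycline-treated TR/TO-Klf9 cells 1 of the 9 genes, Fosl2, was called lower than in vehicle-treated TR/TO-Klf9 cells, and none was called higher. Over all genes 18.1% were called, 7.8% higher and 10.3% lower. The median size of the log2 difference was 0.148 over the 9 genes and 0.187 over all genes. Every value of this comparison rests on 1 doxycycline library, whose spread was assumed to be that of the other groups. The groups did not share 1 spread, by the chi-square per degree of freedom between 2 libraries, which is near 1 for sampling noise. It was 7.6 for the TR/TO-Klf9 vehicle pair, 0.952 to 1.03 for parent doxycycline pairs and 1.5 to 5.77 for parent vehicle pairs. The p-values of this comparison may therefore be too small. The line comparisons and the difference of doxycycline effects used the same shared spread, so the limit holds for them too. In parent cells doxycycline changed 0 of the 9 genes and 0% of all genes by edgeR, and DESeq2 and limma-voom also called 0. An unadjusted p under 0.05 by edgeR was reached by 291 of 13498 genes, fewer than that threshold would pass if nothing changed. The difference between the 2 doxycycline effects was called for 0 of the 9 genes and for 9.53% of all genes, 3.37% higher and 6.16% lower.

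Among the Fos family, Fosl1 encodes Fra-1, a Fos protein without a transactivation domain that is common in growing and mesenchymal cells. It had 144 CPM in TR/TO-Klf9 doxycycline, 158 and 131 CPM in TR/TO-Klf9 vehicle, 220.1, 230.0 and 226 CPM in parent doxycycline, and 208, 233 and 215 CPM in parent vehicle. Every TR/TO-Klf9 library was below every parent library, as was the library with opposite labels, at 125 CPM. The log2 difference of the lines was -0.59 ± 0.07 (SE) under vehicle, 0.662 times the parent level (adjusted p = 6.48e-06, edgeR), and -0.64 ± 0.09 under doxycycline (adjusted p = 3.9e-05). It was called in 23 of 23 alternatives under vehicle. The doxycycline difference in TR/TO-Klf9 cells was -0.001 ± 0.09, with a 95% interval of -0.20 to 0.20. Fosl1 shares 57.2% of its exon bases with Ccdc85b, a gene on the opposite strand. The strand setting of the counting is not given in the sources used here, so reads of the shared stretch cannot be told apart. Ccdc85b had 189 CPM in TR/TO-Klf9 doxycycline and a mean of 159 CPM in TR/TO-Klf9 vehicle, 215 CPM in parent doxycycline and 208 CPM in parent vehicle. Its line difference under vehicle was -0.38 ± 0.05 (adjusted p = 2.89e-05), and after doxycycline in TR/TO-Klf9 cells it was 0.25 ± 0.07 higher on the log2 scale (adjusted p = 0.0253, edgeR).

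Fosl2, which encodes Fra-2, was the only gene of the 9 called after doxycycline in the TR/TO-Klf9 line. It had 184 CPM in TR/TO-Klf9 doxycycline, 214 and 222 CPM in TR/TO-Klf9 vehicle, 241, 242 and 242 CPM in parent doxycycline, and 241, 247 and 234 CPM in parent vehicle. The doxycycline library of the TR/TO-Klf9 line was the lowest of all 9, and the TR/TO-Klf9 vehicle libraries lay between it and the parent libraries. The library with opposite labels, at 212 CPM, lay below the vehicle pair. The log2 difference with doxycycline was -0.25 ± 0.07 in TR/TO-Klf9 cells, 0.842 times the vehicle level (adjusted p = 0.0201, edgeR), against 0.01 ± 0.05 in parent cells (adjusted p = 1). The difference between these effects, -0.26 ± 0.08, missed the threshold (adjusted p = 0.0599). The call held in 17 of 22 alternatives. It was lost with 1 replicate block common to both lines (-0.26, adjusted p = 0.0516), with only the 2 TR/TO-Klf9 groups in the fit (adjusted p = 0.304), and with the library of opposite labels counted under both labels or as doxycycline (adjusted p = 0.435 and 0.335). Fosl2 has the longest of the 10 transcripts, 6537 bases, and with the trend on transcript length removed the difference was -0.08 (adjusted p = 0.517). Between the lines it was lower, at -0.14 ± 0.05 under vehicle (adjusted p = 0.0366), a call that held in 9 of 23 alternatives, and at -0.40 ± 0.07 under doxycycline (adjusted p = 1.38e-04), which held in 22 of 22.

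Fosb and Fos, the classical activity-induced members, had few counts. Fosb stood at 7.66 CPM in TR/TO-Klf9 doxycycline, 11.8 and 8.14 CPM in TR/TO-Klf9 vehicle, 8.999, 7.77 and 8.23 CPM in parent doxycycline, and 9.49, 7.06 and 7.18 CPM in parent vehicle. The groups overlapped, and TR/TO-Klf9 vehicle 1 was the highest library. No comparison called it, and its values turned on single libraries. The line difference under vehicle was 0.29 ± 0.17 (adjusted p = 0.176, edgeR), but 0.01 (adjusted p = 0.979) without TR/TO-Klf9 vehicle 1, 0.53 (adjusted p = 0.0119) without TR/TO-Klf9 vehicle 2 and 0.49 (adjusted p = 0.0431) without parent vehicle 1. The doxycycline difference in TR/TO-Klf9 cells was -0.37 ± 0.23 (adjusted p = 0.278), but -0.11 (adjusted p = 0.777) without TR/TO-Klf9 vehicle 1 and -0.62 (adjusted p = 0.0305) without TR/TO-Klf9 vehicle 2. Fos had 27 counts in TR/TO-Klf9 doxycycline (2.09 CPM, exact Poisson 95% interval 1.38 to 3.04), and 18 and 23 counts in TR/TO-Klf9 vehicle (1.40 and 1.70 CPM). Parent cells had 8, 6 and 16 counts of Fos under doxycycline (0.75, 0.549 and 1.42 CPM) and 15, 9 and 10 under vehicle (0.782, 0.894 and 0.806 CPM). Parent doxycycline 3 lay just above the lowest TR/TO-Klf9 library, and the library with opposite labels, at 1.11 CPM, lay within the parent range. Fos was higher in the TR/TO-Klf9 line by 1.19 ± 0.42 on the log2 scale under doxycycline (adjusted p = 0.0325, edgeR). Under vehicle the value was 0.92 ± 0.36 (adjusted p = 0.0533). These line effects were not called different by their own test (0.27 ± 0.56, adjusted p = 0.816). The call under doxycycline held in 15 of 21 alternatives. It was lost without parent doxycycline 1 (1.07, adjusted p = 0.0852) or parent doxycycline 2 (0.93, adjusted p = 0.105), by DESeq2 (adjusted p = 0.152), with the block within each line (1.06, adjusted p = 0.234), and with the library of opposite labels under both labels (0.82, adjusted p = 0.0981) or as doxycycline (0.82, adjusted p = 0.101).

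The Jun family moved in opposite directions between the lines. Jun, the strongest transactivator of the 3, had 142 CPM in TR/TO-Klf9 doxycycline, 139 and 147 CPM in TR/TO-Klf9 vehicle, 178, 183 and 182 CPM in parent doxycycline, and 164, 187 and 186 CPM in parent vehicle. Junb, often a weaker activator that can oppose Jun, had 43.4 CPM in TR/TO-Klf9 doxycycline, 40.5 and 44.8 CPM in TR/TO-Klf9 vehicle, 51.8, 57.0 and 53.8 CPM in parent doxycycline, and 56.1, 57.3 and 53.9 CPM in parent vehicle. For both genes every TR/TO-Klf9 library was below every parent library, and so was the library with opposite labels, at 138 CPM of Jun and 41.3 CPM of Junb. Under vehicle Jun was lower in the TR/TO-Klf9 line at -0.33 ± 0.06 on the log2 scale, 0.797 times the parent level (adjusted p = 2.99e-04, edgeR), and Junb at -0.39 ± 0.07, 0.766 times (adjusted p = 2.12e-04). Under doxycycline the values were -0.35 ± 0.08 for Jun (adjusted p = 0.0013) and -0.32 ± 0.09 for Junb (adjusted p = 0.00637). Both calls held in every alternative run, 23 under vehicle and 22 under doxycycline. Junb shares 7.52% of its exon bases with Prdx2 on the opposite strand, whose line difference under vehicle was -0.31 ± 0.07 (adjusted p = 0.00319).

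Jund, the Jun gene kept on in resting cells, went the other way. It had 90.5 CPM in TR/TO-Klf9 doxycycline, 86.2 and 92.5 CPM in TR/TO-Klf9 vehicle, 74.6, 76.4 and 73.8 CPM in parent doxycycline, and 67.3, 69.8 and 70.6 CPM in parent vehicle. All 3 TR/TO-Klf9 libraries were above all 6 parent libraries; the library with opposite labels, at 77.5 CPM, was also above them, the highest of which had 76.4 CPM. The log2 difference of the lines was 0.37 ± 0.05 under vehicle, 1.29 times the parent level (adjusted p = 3.94e-05, edgeR), and was called in 23 of 23 alternatives. Under doxycycline it was 0.27 ± 0.07 (adjusted p = 0.00388), called in 18 of 22, and was lost with the length trend removed (0.16, adjusted p = 0.0754), with the block within each line (0.20, adjusted p = 0.109) and with the library of opposite labels as doxycycline (0.17, adjusted p = 0.0705) or under both labels (0.17, adjusted p = 0.096). Doxycycline left none of the 3 genes called in TR/TO-Klf9 cells. The log2 values were -0.01 for Jun, 0.02 for Junb and 0.02 for Jund, with 95% intervals of -0.18 to 0.16, -0.17 to 0.22 and -0.13 to 0.17. In parent cells Jund was 0.12 ± 0.05 higher with doxycycline at an unadjusted p of 0.0321 by edgeR, and every parent doxycycline library was above every parent vehicle library, but the adjusted p was 1. Over all genes, 3.88% were higher and 5.82% lower in every parent doxycycline library, 9.71% in all.

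**Figure D2:**
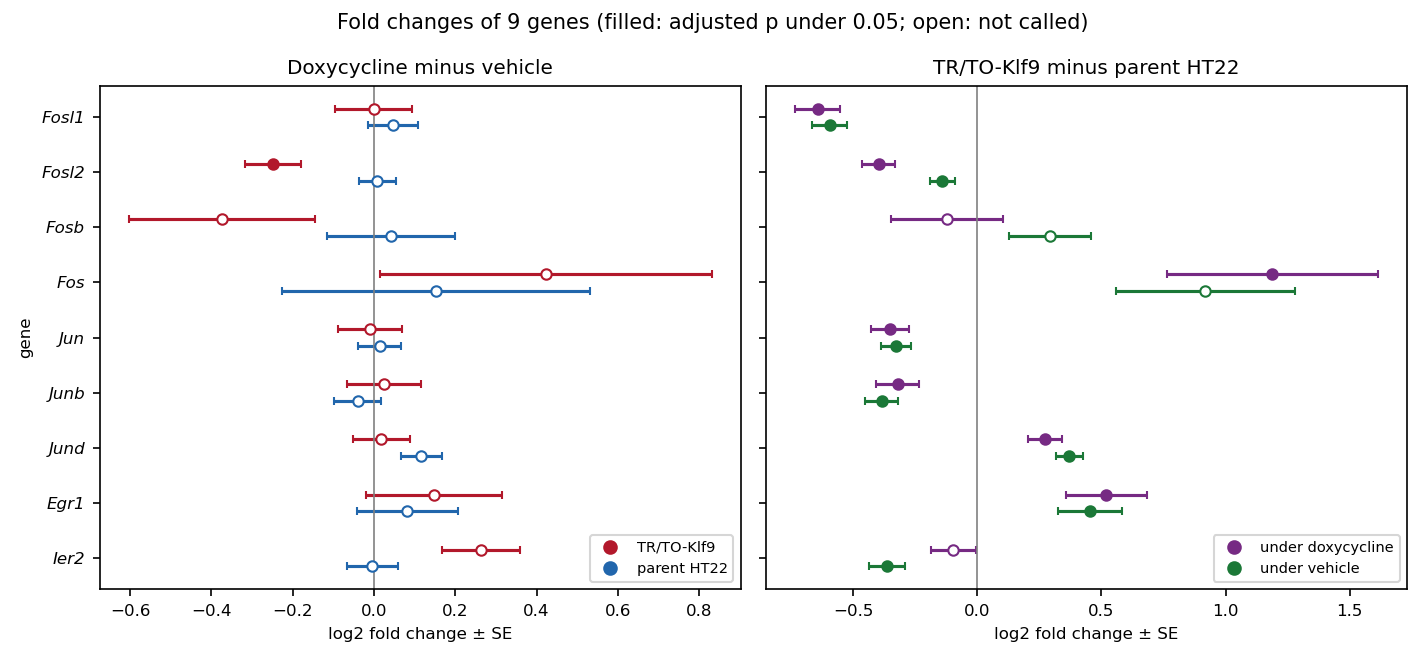
Log2 fold changes with standard errors for the 9 tested genes, with doxycycline minus vehicle on the left and TR/TO-Klf9 minus parent on the right; filled points have an adjusted p under 0.05. On the left only Fosl2 in TR/TO-Klf9 cells is filled, at -0.25, while on the right Fosl1, Fosl2, Jun, Junb, Jund and Egr1 are filled under both treatments.

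The makeup of each family shifted with the line. Summed per kilobase, the Fos family stood at 109 CPM per kilobase in TR/TO-Klf9 doxycycline and 114 ± 9.9 in TR/TO-Klf9 vehicle (SD, n = 2), against 161 ± 2.6 in parent doxycycline and 157 ± 7.5 in parent vehicle (SD, n = 3 each). Fosl1 made up 71.4% of that sum in TR/TO-Klf9 doxycycline, 67.7% ± 3.0 in TR/TO-Klf9 vehicle, 75.3% ± 0.47 in parent doxycycline and 74.9% ± 1.0 in parent vehicle. Every TR/TO-Klf9 sum and every Fosl1 share was below all parent ones. Both rest on Fosl1 counts, which may include reads of the overlapping gene Ccdc85b. Ccdc85b was itself lower in the TR/TO-Klf9 line under vehicle (-0.38 ± 0.05, adjusted p = 2.89e-05, edgeR). The part of such reads in these differences was not tested. The Jun family sums overlapped, at 123 CPM per kilobase in TR/TO-Klf9 doxycycline and 122 ± 6.1 in TR/TO-Klf9 vehicle, against 132 ± 2.8 in parent doxycycline and 129 ± 5.0 in parent vehicle. Within them Jund made up 44.2% in TR/TO-Klf9 doxycycline and 44.0% ± 0.035 in TR/TO-Klf9 vehicle, against 34.2% ± 0.45 in parent doxycycline and 32.3% ± 0.63 in parent vehicle. Jun made up 36.2% in TR/TO-Klf9 doxycycline and 36.7% in TR/TO-Klf9 vehicle, against 43.1% in parent doxycycline and 43.7% in parent vehicle. Jund was thus the largest share in the TR/TO-Klf9 line and Jun in the parent line, on the per-kilobase scale with the annotated transcript lengths. In CPM alone Jun stood above Jund in TR/TO-Klf9 cells too, at 141.5 against 90.5 under doxycycline and 142.5 against 89.3 under vehicle.

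**Figure D3:**
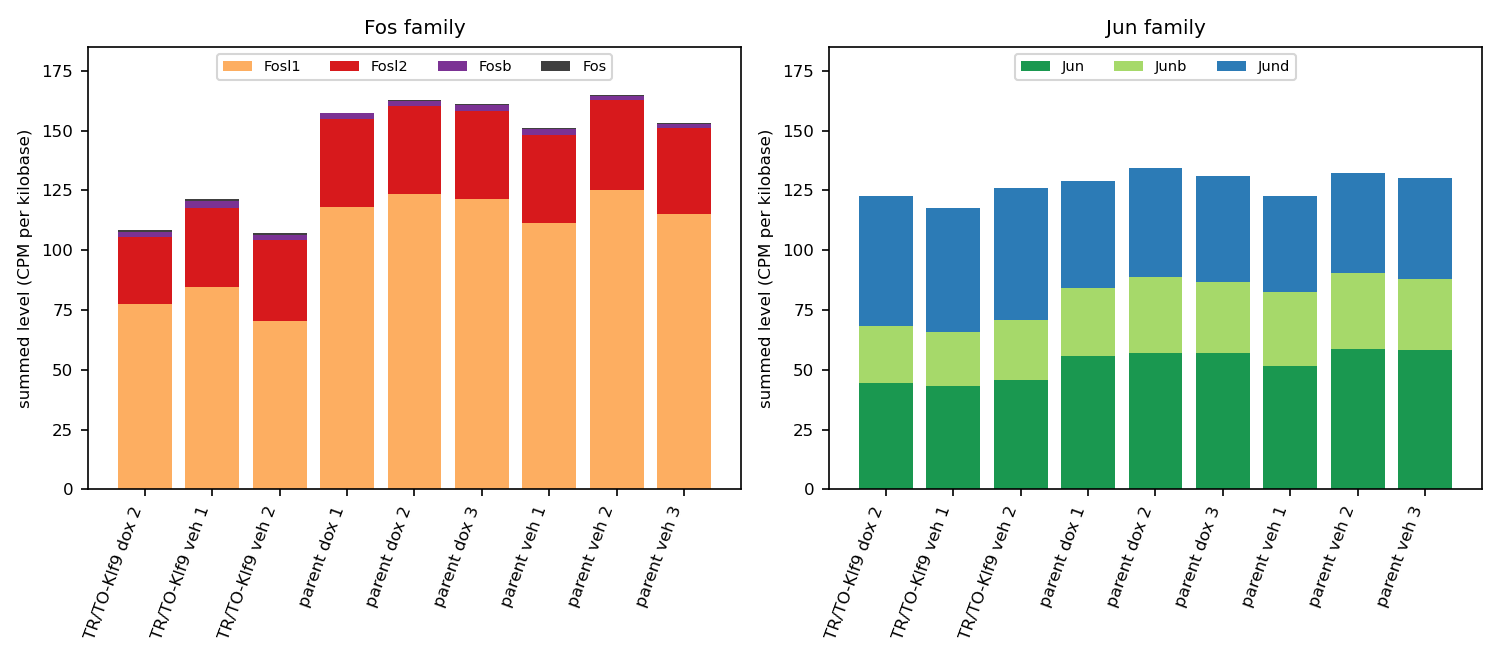
Summed level (CPM per kilobase, bars from 0) of the Fos family on the left and the Jun family on the right in each of the 9 libraries, coloured by gene. The Fos sums run from 107 to 121 in the TR/TO-Klf9 libraries and from 151 to 165 in the parent libraries, while the Jun sums overlap and differ in the share of Jund. The Fosl1 part may include reads of Ccdc85b, which overlaps it on the opposite strand.

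Egr1, the zinc finger factor of the set, had 20.5 CPM in TR/TO-Klf9 doxycycline, 17.1 and 19.8 CPM in TR/TO-Klf9 vehicle, 12.2, 14.3 and 16.4 CPM in parent doxycycline, and 14.6, 11.03 and 14.3 CPM in parent vehicle. All 3 TR/TO-Klf9 libraries were above all 6 parent libraries, as was the library with opposite labels, at 18.5 CPM. The log2 difference of the lines was 0.45 ± 0.13 under vehicle, 1.37 times the parent level (adjusted p = 0.0111, edgeR), and 0.52 ± 0.16 under doxycycline (adjusted p = 0.0166). Without TR/TO-Klf9 vehicle 2 the value under vehicle was 0.34 (adjusted p = 0.07), and without parent doxycycline 1 the value under doxycycline was 0.42 (adjusted p = 0.0613). With the block within each line the values were 0.35 (adjusted p = 0.0718) under vehicle and 0.32 (adjusted p = 0.276) under doxycycline. The doxycycline difference in TR/TO-Klf9 cells, 0.15 ± 0.17, was not called, with a 95% interval of -0.21 to 0.50.

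Ier2, an immediate early gene for a small nuclear protein, had 37.3 CPM in TR/TO-Klf9 doxycycline, 30.3 and 31.8 CPM in TR/TO-Klf9 vehicle, 38.7, 41.8 and 39.1 CPM in parent doxycycline, and 39.9, 37.8 and 42.0 CPM in parent vehicle. The TR/TO-Klf9 vehicle libraries were lowest, and the TR/TO-Klf9 doxycycline library lay between them and the parent libraries, just under the lowest of these. Under vehicle the line difference was -0.36 ± 0.07, 0.777 times the parent level (adjusted p = 7.39e-04, edgeR; called in 23 of 23 alternatives). Under doxycycline it was -0.10 ± 0.09 (adjusted p = 0.411). The doxycycline difference in TR/TO-Klf9 cells was 0.26 ± 0.10 (adjusted p = 0.0687) and the difference from the parent effect was 0.27 ± 0.12 (adjusted p = 0.156), so the line effects were not called different by treatment. The library with opposite labels had 28.2 CPM. With it counted as vehicle, the doxycycline value was 0.31 (adjusted p = 0.0308), and without TR/TO-Klf9 vehicle 2 it was 0.30 (adjusted p = 0.0388). With it counted as doxycycline, the line difference under doxycycline was -0.28 (adjusted p = 0.0374), and the doxycycline value in TR/TO-Klf9 cells was 0.08. With the length trend removed that doxycycline value was 0.15. It was called in 2 of 22 alternatives, those with the library counted as vehicle and without TR/TO-Klf9 vehicle 2.

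Atf3, a stress-induced partner and repressor of AP-1, was the gene not tested. It had 4 counts in TR/TO-Klf9 vehicle 1 (0.312 CPM) and 0 in each of the other 8 libraries and in the library with opposite labels. A count of 0 allows up to 0.232 CPM in TR/TO-Klf9 doxycycline (3 counts of the library) and up to 0.0912 CPM over the parent doxycycline group and 0.072 CPM over the parent vehicle group. The exact Poisson 95% interval for TR/TO-Klf9 vehicle was 0.0414 to 0.389 CPM. These limits cover counting error only.

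The signalling factors that switch these genes on were described as a list of 32 regulators of the serum response and CREB routes, 31 of them tested. The counts of this list stand beside all-gene shares of 7.8% higher and 10.3% lower after doxycycline in TR/TO-Klf9 cells. Between the lines under vehicle the all-gene shares were 17.9% higher and 21.1% lower. After doxycycline in TR/TO-Klf9 cells 1 was higher, Hras, named after its value was seen, and 9 were lower, with a median log2 difference of -0.14, against 0.00 over all genes. In parent cells none was called by edgeR. Elk4, an ETS factor that joins serum response factor on promoters of immediate early genes, had 25.5 CPM in TR/TO-Klf9 doxycycline, 59.0 and 64.6 CPM in TR/TO-Klf9 vehicle, 60.1, 60.1 and 64.9 CPM in parent doxycycline, and 63.1, 55.7 and 60.6 CPM in parent vehicle. The TR/TO-Klf9 doxycycline library stood apart below all 8 others. The log2 difference was -1.28 ± 0.10 (adjusted p = 1.35e-06, edgeR), and the difference from the parent effect was -1.31 ± 0.12 (adjusted p = 9.67e-06). The library with opposite labels had 51.6 CPM, and with it counted as doxycycline or under both labels neither value was called. Also lower were Crebbp, the CREB-binding coactivator (-0.54 ± 0.06, adjusted p = 6.11e-05), Mrtfb, an actin-regulated coactivator of serum response factor (-0.43 ± 0.07, adjusted p = 5.07e-04), and Atf1, a CREB relative (-0.40 ± 0.09, adjusted p = 0.00528). Crebbp, Mrtfb and Atf1 were called in 19 of 22 alternatives. Elk4 and these 3 were the ones whose doxycycline effects were called different between the lines. With the length trend removed Crebbp stood at -0.24 (adjusted p = 0.02). Under vehicle 9 regulators were higher and 6 lower in the TR/TO-Klf9 line, with a median of 0.05 against 0.00 over all genes. Rps6ka5, the kinase MSK1, was higher by 0.56 ± 0.08 (adjusted p = 5.7e-05). Elk3, another ternary complex factor, was lower, at -0.67 ± 0.06 (adjusted p = 1.53e-07) and Braf, a kinase above ERK, at -0.35 ± 0.05 (adjusted p = 3.38e-05).

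A list of 15 held genes that restrain AP-1 and Egr1, among them MAP kinase phosphatases, message decay factors, Nab corepressors and the AP-1 repressor Jdp2, which the list of leucine zipper partners holds too; all 15 were tested. Dusp1 and Zfp36 are also in the list of other immediate early genes. The counts of restraints stand beside all-gene shares of 17.9% higher and 21.1% lower under vehicle, and 7.8% and 10.3% after doxycycline. Under vehicle 3 were higher, Dusp1, Dusp4 and Jdp2, and 3 lower, Dusp5, Dusp6 and Zfp36l2, in the TR/TO-Klf9 line, with a median of -0.06 against 0.00 over all genes; Dusp4 and Jdp2 are named after their values were seen. Dusp6, the cytoplasmic ERK phosphatase that ERK signalling itself induces, had 38.1 CPM in TR/TO-Klf9 doxycycline, 32.8 and 37.6 CPM in TR/TO-Klf9 vehicle, 76.1, 78.7 and 82.97 CPM in parent doxycycline, and 80.0, 82.9 and 79.9 CPM in parent vehicle. Its line difference was -1.20 ± 0.07 (adjusted p = 8.32e-10, edgeR). Dusp5, a nuclear ERK phosphatase, was lower, at -0.59 ± 0.10 (adjusted p = 1.65e-04) and Zfp36l2, which promotes decay of AU-rich messages, at -0.60 ± 0.09 (adjusted p = 1.28e-04). Dusp1, an immediate early phosphatase of p38 and JNK, was higher: 29.2 CPM in TR/TO-Klf9 doxycycline and 30.1 and 26.3 CPM in TR/TO-Klf9 vehicle, against 13.4, 13.0 and 13.1 CPM in parent doxycycline and 14.7, 12.4 and 12.6 CPM in parent vehicle. That was a log2 difference of 1.07 ± 0.10 (adjusted p = 2.78e-07). The TR/TO-Klf9 and parent libraries did not overlap for Dusp1 or Dusp6. After doxycycline in TR/TO-Klf9 cells 0 were higher and 2 lower. Cnot1, scaffold of a deadenylase, was lower, at -0.38 ± 0.08 (adjusted p = 0.00492), and at -0.15 (adjusted p = 0.317) with the length trend removed. Dusp4 was lower, at -0.50 ± 0.14 (adjusted p = 0.0267), a call that held in 16 of 22 alternatives and was lost without parent vehicle 2.

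**Figure D4:**
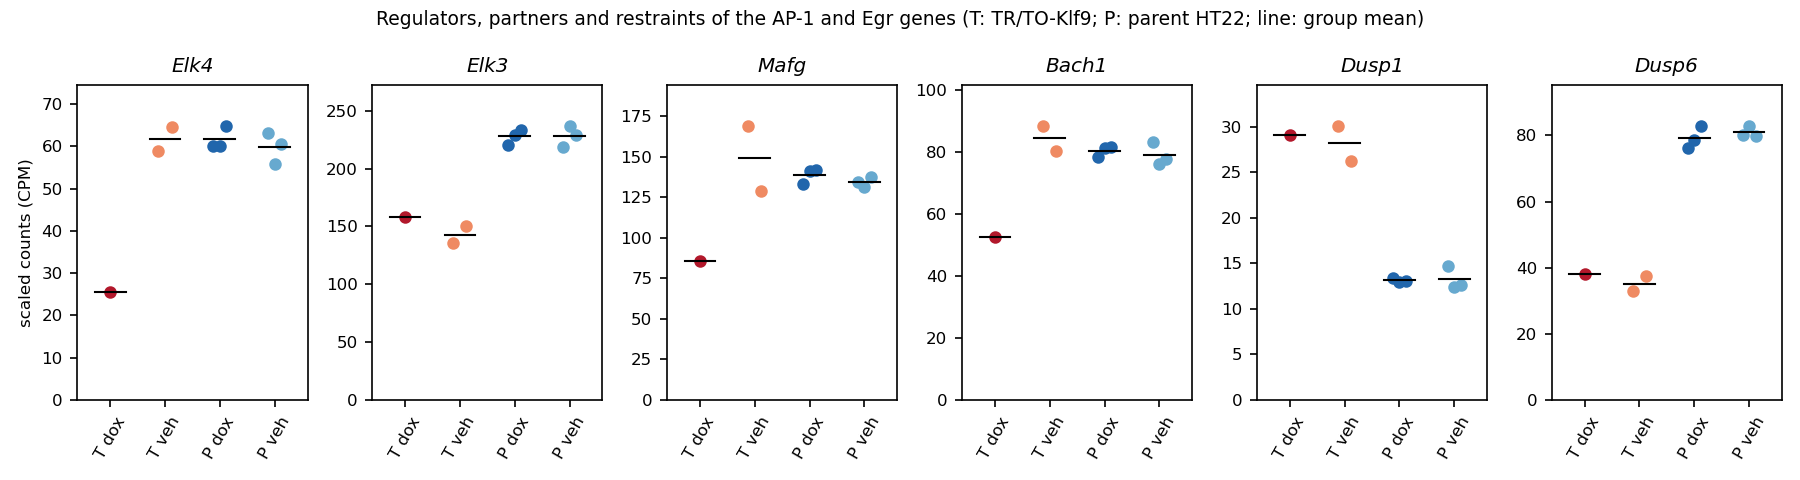
Scaled counts (CPM, vertical axis from 0) of 6 regulators, partners and restraints in each library; points are libraries, lines are group means, T is TR/TO-Klf9 and P is parent. Elk4, Mafg and Bach1 are lowest in TR/TO-Klf9 doxycycline, at 25.5, 85.7 and 52.4 CPM, while Elk3, Dusp1 and Dusp6 separate the lines under both treatments.

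Other leucine zipper partners of AP-1 numbered 16, of which 15 were in the table and 9 were tested. Their counts stand beside all-gene shares of 7.8% higher and 10.3% lower after doxycycline, and 17.9% and 21.1% under vehicle. After doxycycline in TR/TO-Klf9 cells 2 were lower and 0 higher, with a median of -0.26. Bach1, a heme-regulated repressor that pairs with small Maf proteins, had 52.4 CPM in TR/TO-Klf9 doxycycline, 88.4 and 80.3 CPM in TR/TO-Klf9 vehicle, 78.2, 81.1 and 81.4 CPM in parent doxycycline, and 83.2, 76.0 and 77.6 CPM in parent vehicle, a log2 difference of -0.69 ± 0.08 (adjusted p = 7.6e-05, edgeR). Mafg, one of those small Maf proteins, had 85.7 CPM in TR/TO-Klf9 doxycycline, 169 and 129 CPM in TR/TO-Klf9 vehicle, 133, 141 and 142 CPM in parent doxycycline, and 135, 132 and 138 CPM in parent vehicle, a difference of -0.80 ± 0.12 (adjusted p = 0.00138). For both the single doxycycline library lay below all 8 others. The library with opposite labels had 79.6 CPM of Bach1 and 123 CPM of Mafg, and neither call held with it counted as doxycycline or under both labels, nor with only the 2 TR/TO-Klf9 groups in the fit. Under vehicle 2 were higher and 0 lower in the TR/TO-Klf9 line, with a median of 0.18: Jdp2, a repressor of AP-1, by 0.27 ± 0.05 (adjusted p = 2.94e-04), and Bach2 by 0.52 ± 0.13 (adjusted p = 0.00783). The Bach2 call held in 21 of 23 alternatives and was lost without TR/TO-Klf9 vehicle 2.

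Among 41 other immediate early genes, 37 were tested. Their counts stand beside all-gene shares of 17.9% higher and 21.1% lower under vehicle, and 7.8% and 10.3% after doxycycline. Under vehicle 10 were higher and 8 lower in the TR/TO-Klf9 line, with a median of 0.03 against 0.00 over all genes. The genes of smallest adjusted p were Dusp1, Nr4a2, an orphan nuclear receptor, higher by 0.64 ± 0.07 (adjusted p = 1.22e-06), Errfi1, an inhibitor of EGF receptor signalling, lower, at -0.67 ± 0.05 (adjusted p = 4.27e-08), and the GTPase gene Gem, lower, at -1.99 ± 0.17 (adjusted p = 1.53e-07, edgeR). After doxycycline in TR/TO-Klf9 cells 1 was higher and 2 lower: the clock gene Per1 at -0.48 ± 0.12 (adjusted p = 0.0122), Sik1, a kinase that restrains CREB coactivators, at -0.35 ± 0.10 (adjusted p = 0.0218), and the stress gene Gadd45b by 0.24 ± 0.08 (adjusted p = 0.0459). The median was -0.02. The Per1 call held in 18 of 22 alternatives, the Gadd45b call in 6 and the Sik1 call in 16; with the length trend removed both were lost (adjusted p = 0.392 and 0.067).

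Genes described as AP-1 targets numbered 28, with 20 tested. The counts of both target lists stand beside all-gene shares of 17.9% higher and 21.1% lower under vehicle, and 7.8% and 10.3% after doxycycline. Under vehicle 4 were higher and 8 lower in the TR/TO-Klf9 line, with a median of -0.01. Lower were Hmga1, a chromatin protein (-0.77 ± 0.08, adjusted p = 9.05e-07, edgeR), and the EGF receptor ligands Areg (-1.48 ± 0.20, adjusted p = 2.36e-05) and Ereg (-0.55 ± 0.09, adjusted p = 8.07e-05). Mmp2, Spp1 and Il11, named after their values were seen, were among the higher ones. After doxycycline 0 were higher and 1 lower, Sphk1, a sphingosine kinase (-1.08 ± 0.30, adjusted p = 0.0247), a call that held in 14 of 22 alternatives and was lost without TR/TO-Klf9 vehicle 1. The median was -0.04. Of 15 genes described as Egr1 targets, 12 were tested, and 4 were higher and 2 lower in the TR/TO-Klf9 line under vehicle, with a median of 0.03. Rcan1, an inhibitor of calcineurin, was higher by 0.80 ± 0.08 (adjusted p = 6.66e-07), and F3, tissue factor, by 0.72 ± 0.08 (adjusted p = 2.06e-06). Cdk5r1, the p35 activator of Cdk5, was higher by 0.60 ± 0.13 (adjusted p = 0.00163). Gdf15 was also higher and Tgfb1, which the AP-1 target list holds too, was lower; both are named after their values were seen. Pdgfb, a growth factor chain, was at few or no counts in the TR/TO-Klf9 line: 0 counts in the doxycycline library and 6 and 2 in the vehicle libraries, against 157, 148 and 149 in parent doxycycline and 293, 139 and 171 in parent vehicle (log2 difference under vehicle -5.52 ± 0.25, adjusted p = 5.05e-11). After doxycycline in TR/TO-Klf9 cells F3 was lower, at -0.35 ± 0.11 (adjusted p = 0.0302) and Cdk5r1 at -0.59 ± 0.18 (adjusted p = 0.0339), with a list median of -0.26 and no gene higher. The F3 call held in 14 and the Cdk5r1 call in 11 of 22 alternatives. Both were lost without TR/TO-Klf9 vehicle 1 or parent doxycycline 2, and that of Cdk5r1 also without parent vehicle 3.

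Markers of other cell types moved with the line beside these genes. The microglial list summed to 35.4 CPM in TR/TO-Klf9 doxycycline and 30.4 to 32.3 CPM in TR/TO-Klf9 vehicle, against 6.75 to 7.78 CPM in parent doxycycline and 5.17 to 7.82 CPM in parent vehicle. Tmem119 and Csf1r, 2 of its 5 markers, reached 1 CPM. Cx3cr1 and P2ry12 had at most 4 summed counts in any group, parent groups included, and 0 in TR/TO-Klf9 doxycycline. Of the neuron list 3 of 8 were tested, and the lower sum in the TR/TO-Klf9 line was carried by Tubb3, a neuronal tubulin, at 10.8 CPM in TR/TO-Klf9 doxycycline and a mean of 13.9 CPM in TR/TO-Klf9 vehicle, against 31.8 CPM in parent doxycycline and 31.9 CPM in parent vehicle (log2 difference under vehicle -1.20 ± 0.09, adjusted p = 5.32e-08, edgeR). Elavl3, a neuronal RNA-binding protein, went the other way under vehicle, at a mean of 2.97 CPM in TR/TO-Klf9 and 1.47 CPM in parent cells (0.95 ± 0.25, adjusted p = 0.0054), and with doxycycline it stood at 1.08 CPM in TR/TO-Klf9 and 1.70 CPM in parent cells. Of the 6 fibroblast and mesenchymal markers, 3 were called higher in the TR/TO-Klf9 line under each treatment and 0 lower. These were Acta2, smooth muscle actin, with 146 CPM in TR/TO-Klf9 doxycycline and a mean of 124 CPM in TR/TO-Klf9 vehicle, against 38.6 CPM in parent doxycycline and 37.5 CPM in parent vehicle (1.73 ± 0.06 under vehicle, adjusted p = 2.7e-12), the PDGF receptor gene Pdgfrb (0.81 ± 0.08, adjusted p = 9.56e-07) and the collagen gene Col3a1 (0.50 ± 0.09, adjusted p = 2.41e-04). The other 3 were not called under either treatment. Col1a2 had lower means in the TR/TO-Klf9 line, 1217 against 1365 CPM under vehicle and 1195 against 1486 CPM under doxycycline. So did Vim, at 633 against 681 CPM and 690 against 744 CPM. Col1a1 stood at 824 against 789 CPM under vehicle and 823 against 861 CPM under doxycycline. The part of all these cell type markers in the AP-1 and Egr1 results was not tested.

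Some genes followed the members closely over the 9 libraries. Likeness was the root mean square difference of centred log2 values, searched over 10770 genes, with no test. Closest to Fosl1 were Hnrnph2 (0.0414), Tes (0.0574) and Akr1b8 (0.0663), on a pattern with an SD of 0.321. Closest to Jun were Tex261 (0.0337), Mcm2 (0.0343) and Farsa (0.0353), and closest to Junb were Trabd (0.0315), Mief1 (0.0345) and Selenoi (0.0351). Polr2h (0.0371) was closest to Jund, Hoxd3os1 (0.0762) to Egr1 and AI837181 (0.0426) to Ier2. The libraries of a line share their cell source.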

How the data were processed

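Counts from sequenced RNA of HT22 and HT22[TR/TO-Klf9] cells were analysed. Per the labels' protocols, wells were plated with about 250000 cells, RNA was taken with TRIzol and libraries were primed with oligo-dT. The deposited values are raw read counts, 1 row per RefSeq transcript, for 11 samples, all of which match a label (columns not used: 0). The submitters' processing notes name CASAVA, FastQC, Bowtie, DESeq and build mm8 without roles; tool versions, the counter, its strand setting and the annotation are not stated in what was used here. The table has 33815 rows with 32923 distinct accessions, of which 32685 were given a symbol from a RefSeq gene table (GRCm38.p6, names only) and 238 kept their identifier. Rows of a gene share reads, so the row of highest mean was used (Jund had 2).

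Titles gave the groups. Identical columns under opposite labels were left out of both. After filterByExpr and TMM scaling, edgeR 4.0.16 in R 4.3.3 fitted 4 group means by glmQLFit (robust, 5 residual degrees of freedom), and glmQLFTest p-values were adjusted by Benjamini-Hochberg over 13498 genes, called under 0.05. The SE was taken as the log2 fold change divided by the root of F, and 95% intervals from the t distribution. The common dispersion of 0.00229 is equal to 4.78% of variation. The test was also run on counts simulated with that 1 dispersion for all groups, which does not cover spread that differs between groups. CPM used TMM-scaled totals, per-library log2 values a prior count of 0.5, and transcript lengths GENCODE M21 (97.9% of tested genes).

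Members, lists and tests were chosen with earlier results of these data known. All members are named, and up to 4 called genes per list and comparison, those of smallest adjusted p. The lines under doxycycline were compared as an addition after the data were seen. Alternatives were DESeq2 (1.42.0), limma-voom (3.58.1), RLE, another filter (none, or at least 1 CPM in 5 libraries), blocks for the replicate number, a fit of the compared groups alone, the identical library placed under either label or both, removal of a length trend by loess (span 0.4), summed rows, no robust estimation, and each library left out. Whether replicate numbers pair the samples could not be decided. The parent doxycycline pair 2 and 3 was closer than sampling noise (0.952 as chi-square per degree of freedom), but libraries of opposite treatments came as close as 1.04, so both were kept. Other steps used Python 3.11.15 (numpy 2.4.6, pandas 2.3.3, scipy 1.17.1, matplotlib 3.10.9). Some genes of the lists are counted but not reported by name here.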

Additional observations from a re-analysis of the deposited data

Results flagged for a closer look

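Genes around AP-1 whose doxycycline effect differed between the lines are listed here, by the interaction term of the edgeR fit with Benjamini-Hochberg adjustment. None of the 9 tested members met this, Fosl2 coming nearest at -0.26 ± 0.08 (adjusted p = 0.0599). The log2 difference of the effects, TR/TO-Klf9 minus parent, was -1.31 for Elk4, -0.84 for Mafg, -0.71 for Bach1, -0.48 for Crebbp, -0.48 for Atf1, -0.45 for Mrtfb and -0.43 for Cnot1. The adjusted p was 9.67e-06 for Elk4, 0.0052 for Mafg, 4.58e-04 for Bach1, 0.00152 for Crebbp, 0.00973 for Atf1, 0.00271 for Mrtfb and 0.0122 for Cnot1. All rest on 1 TR/TO-Klf9 doxycycline library, and none was called with the library of opposite labels counted as doxycycline or under both labels. With the length trend removed, Crebbp stood at -0.17 (adjusted p = 0.186) and Cnot1 at -0.20 (adjusted p = 0.314), and the other 5 kept their calls.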

How the results depend on the processing

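No called value changed sign in any alternative. Among all genes, 2446 were called with doxycycline in TR/TO-Klf9 cells. The count was 1316 by DESeq2 (244 higher, 1072 lower), 1335 with the replicate block shared by lines, 77 with only the groups compared, 1470 with the length trend removed, and 0 with the identical library under both labels or as doxycycline; without 1 library it ran from 1892 to 3791. The difference of doxycycline effects, 1287 genes, gave 719 by DESeq2 (51 higher, 668 lower), 554 with the block shared by lines, 1944 with the block within each line, 585 with the length trend removed, and 0 with the identical library under both labels or as doxycycline; without 1 library it ran from 565 to 2905. Of the 9 members, 1 was higher with doxycycline in TR/TO-Klf9 cells with the identical library as vehicle, and 0 to 1 without 1 library; 0 were lower with the block shared by lines, only the groups compared, the identical library under both labels or as doxycycline, or the length trend removed, and 1 to 2 without 1 library. For the difference, 1 member was lower with the stricter filter, the block within each line or summed rows, and 0 to 1 without 1 library. Between the lines under vehicle, 1 member was higher with the block within each line, and without 1 library 2 to 3 were higher and 4 to 5 lower. Between the lines under doxycycline, 0 members were higher with the block within each line, 1 with the identical library under both labels or as doxycycline, and 1 to 3 without 1 library. Doxycycline in the parent line called 0 members and 0 genes in every setting run. The replicate block rests on numbers whose pairing of the samples could not be decided. Deviations of same-numbered parent libraries correlated at -0.0444, 0.000672 and 0.0215, and parent doxycycline 1 correlated best with parent vehicle 2 (0.0764). Parent doxycycline libraries differed by little more than sampling noise (0.952 to 1.03 as chi-square per degree of freedom), so the check could hardly show a pairing. It was not run in TR/TO-Klf9 cells. The causes were not tested. Depth limits Fos (27 to 41 counts per group) and Atf3. DESeq2 gave Fos no adjusted p for doxycycline in TR/TO-Klf9 cells, and neither Fos nor Fosb one for the difference.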

Other observations

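The 2 TR/TO-Klf9 vehicle libraries differed among themselves in the Fos family. Vehicle 1 minus vehicle 2 was 0.53 for Fosb, 0.27 for Fosl1 and -0.28 for Fos on the log2 scale, against a median absolute difference of 0.111 over 10271 genes above 8 CPM. It was -0.21 for Egr1, -0.15 for Junb, -0.10 for Jund, -0.08 for Jun, -0.07 for Ier2 and -0.05 for Fosl2. The library deposited under opposite labels had 46.0 CPM of Klf9, which lay within the range of the TR/TO-Klf9 vehicle libraries, 43.9 to 48.5 CPM, and below the 102 CPM of the TR/TO-Klf9 doxycycline library.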
